A study of Bos grunniens with 6 samples.

Results

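The genes described here are axon guidance ligands, their receptors and the proteins that act behind those receptors, measured in cultured cells of the yak (Bos grunniens) hair follicle. Members were the rows of the expression table whose pathway annotation includes axon guidance, without the hedgehog rows SMOH and PTCH and without rows that are also annotated to Wnt, TGF-beta or ErbB signalling or to cytokine receptor interaction. Of the 155 rows with the annotation 52 were left out in this way, and 103 of the 15646 genes in the table remained. They comprise 27 genes of the semaphorin system, 18 of the ephrin system, 6 of the slit system, 10 of the netrin system and 42 cytoplasmic, membrane or channel proteins outside these 4 systems. The rule itself used no expression value, but it was chosen with earlier results of these data known. Many rows carry older gene symbols, which follow the current symbol in parentheses.

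The study compared dermal papilla cells (DPC), labelled as dermal cells, with hair matrix cells (HMC), labelled as epidermal cells. The dermal papilla is the cluster of mesenchymal cells at the base of the follicle that signals to its epithelium, and the hair matrix is the dividing epithelium around it. Both were wild-type cells taken from skin and grown without further treatment in DMEM/F12 medium with antibiotics, 10% serum, IGF1 at 10 ng/mL and EGF at 20 ng/mL. There were 3 libraries of each. The labels number the libraries as biological replicates but give neither the animals, their age nor the passage, so the p-values measure the spread between these libraries, which may be technical. Values are FPKM, fragments scaled to gene length and library size, so levels can be set side by side between genes on this per-length scale.

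Guidance molecules were named for their action on growing axons, but most of these families act in many tissues. Semaphorins signal through plexins, the secreted class 3 members mostly together with neuropilins. Ephrins are bound to the cell membrane and meet Eph receptor tyrosine kinases on neighbouring cells, with signals passing in both directions. Slits are secreted ligands of robo receptors, and netrins are laminin-related secreted proteins that bind DCC, neogenin and the UNC5 receptors. In skin such molecules are known from the patterning of nerves and vessels and from contacts between epithelial cells.

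The recovered reads behind the table came to 13.1 to 13.4 M (mega) in DPC and to 13.7 to 14.0 M in HMC, per library. By general markers the cultures divided as mesenchyme and epithelium. The lists hold no marker particular to papilla or matrix, so those identities rest on the labels. Of 6 mesenchymal markers all, COL1A1 and TWIST1 among them, were higher in DPC. Of 7 epithelial markers 6, CDH1 and EPCAM among them, were higher in HMC. The exception was KRT14, at 16.2 ± 3.63 FPKM in DPC and 15.0 ± 0.330 in HMC (SD, n = 3 each). Since guidance genes are also known from nerve and vessel, markers of those were read as well. Of the endothelial list PECAM1, CDH5 and CLDN5 reached at most 0.109 FPKM in any library and KDR (FLK1) at most 0.208 FPKM. ENG was higher in DPC, at 60.8 ± 1.69 FPKM against 1.96 ± 0.0368 FPKM, and VWF (F8VWF) was the reverse, with 0.0355 ± 0.0172 FPKM in DPC and 1.08 ± 0.0447 in HMC. The list summed to 60.0 to 63.0 FPKM in DPC and 3.04 to 3.24 FPKM in HMC. Of the neuronal list NEFL, NEFM and SYP reached at most 0.0530 FPKM, TUBB3 (TUBB4), MAP2 and NEFH were higher in HMC, and UCHL1 and STMN2 were higher in DPC. TUBB3, the leading one in HMC, was at 155 ± 3.63 FPKM there and 12.1 ± 0.357 FPKM in DPC, and the list summed to 91.2 to 103 FPKM in DPC and 212 to 222 FPKM in HMC. The glial list also went both ways. SOX10, listed at 0 in every DPC library and at 1.14 to 1.92 FPKM in HMC, and ERBB3 (HER3), at 0.0284 FPKM in DPC and 38.5 in HMC, were higher in HMC, while PMP22, at 16.7 and 0.287 FPKM, and S100B, at 7.66 and 4.28 FPKM, were higher in DPC. NGFR reached at most 0.112 FPKM, and the list summed to 22.7 to 25.7 FPKM in DPC and 40.0 to 47.4 FPKM in HMC. The part of these lists in the differences below was not tested. In bulk cultures, fewer cells of a type and less RNA per cell cannot be told apart.

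The 4 systems were divided between the cell types. Slits and robos lay almost wholly in DPC. Eph receptors, most class 4 semaphorins and the plexins PLXNA2 and PLXNB1 were higher in HMC. Semaphorin and netrin ligands were present in both cell types, in different proportions of the family members. Summed over its 3 genes, slit mRNA stood at 41.4, 41.9 and 42.2 FPKM in the DPC libraries and at 0.208, 0.191 and 0.110 FPKM in the HMC libraries. The 10 Eph receptors summed to 53.7 ± 0.954 FPKM in DPC and 273 ± 6.86 in HMC, and the 7 plexins to 137 ± 3.53 and 289 ± 11.2 FPKM (SD, n = 3 each). Semaphorin ligands summed to 123 ± 2.74 FPKM in DPC and 236 ± 8.59 in HMC, ephrins to 33.4 ± 2.59 and 66.9 ± 2.93 FPKM, and netrins to 76.4 ± 1.33 and 122 ± 4.75 FPKM. The 5 netrin receptors among the members were the lowest class in DPC, at 3.95 ± 0.563 FPKM against 1.59 ± 0.253 FPKM in HMC. That sum does not hold neogenin (NEO1), a netrin receptor that the rule left out. Its level was 22.2 ± 1.13 FPKM in DPC and 9.25 ± 0.298 in HMC. In all 8 classes the DPC and HMC libraries did not overlap, as deposited or after median-of-ratios rescaling.

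**Figure D1:**
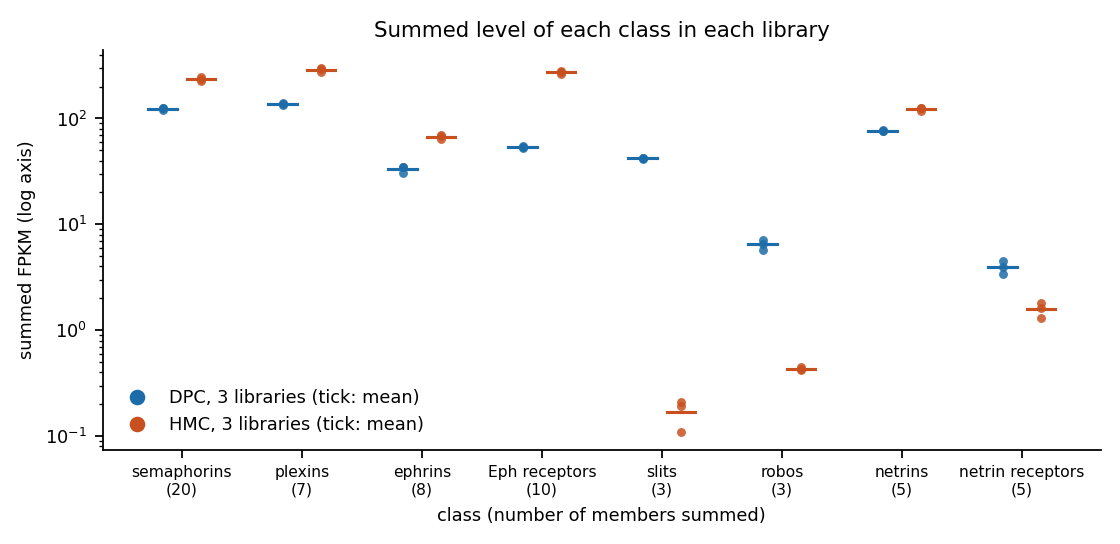
Summed FPKM of each class of ligands or receptors on a log axis, 1 point per library and a tick at the mean of 3, with the number of members summed in parentheses. Slits, robos and netrin receptors lay higher in DPC and the other 5 classes higher in HMC, without overlap between the cell types.

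Of the 103 members, 76 averaged 0.5 FPKM or more over the 6 libraries and were tested, and 27 lay under that filter. In limma, with p adjusted over the 11883 genes tested and a threshold of 0.05, 26 members were higher in DPC, 43 were higher in HMC and 7 did not pass. These 69 calls are 90.8% of the tested members, beside 75.9% of all genes tested. By direction, 34.2% of the members were higher in DPC and 56.6% higher in HMC, beside 29.7% and 46.2% of all genes. Of the tested members 44 (57.9%) passed with a difference of 2-fold or more, 17 of them on the DPC side and 27 on the HMC side, beside 27.1% of all genes. The median size of the log2 difference, regardless of sign, was 1.14 in the members and 0.50 over all genes. In 69 members the libraries of the cell types did not overlap, beside 77.9% of all genes. Of the 76, 19 passed the filter through 1 cell type only, 9 through DPC and 10 through HMC, and so had to differ. Among the 52 rows that the rule left out, 48 were tested, of which 13 were higher in DPC, 26 were higher in HMC and 9 did not pass.

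The split between directions moved with scaling. With FPKM as deposited the median log2 difference of all genes was -0.15 and 37.7% of the called members were higher in DPC. After median-of-ratios rescaling these values were -0.02 and 40.3%, and after quantile normalization 0.05 and 44.6%. Over all genes the share of calls higher in DPC was 39.1%, 48.8% and 53.8% with these scalings, and a small difference in either direction has to be read against that shift.

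Semaphorins are the largest family here, with 20 ligands, and their proportions differed between DPC and HMC while SEMA3F was among the leading ones in both. In DPC the secreted SEMA3C made up 42.0 ± 0.875% of all semaphorin FPKM, followed by SEMA3F with 18.4 ± 1.06% and the membrane protein SEMA5A (SEMAF) with 14.8 ± 0.405% (SD, n = 3). In HMC SEMA3F led with 29.7 ± 0.731%, followed by SEMA4B (UNQ749/PRO1480) with 20.3 ± 0.518%, SEMA4F (SEMAM) with 11.7 ± 0.258% and the membrane-anchored SEMA7A (CD108) with 11.4 ± 0.354%. The shares of SEMA4F and SEMA7A in HMC did not differ beyond their spread. Of the 16 ligands tested, 5 were higher in DPC and 11 higher in HMC, beside 29.7% and 46.2% of all genes. SEMA3D and SEMA6C passed the filter through DPC alone, and SEMA3G, SEMA4A, SEMA4D and SEMA6A through HMC alone. The directions of these ligands carry no weight of their own.

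The secreted class 3 was split. SEMA3C, known for its part in heart outflow tract and vessel development, stood at 53.6, 49.4 and 51.9 FPKM in the DPC libraries and at 8.12, 7.60 and 6.72 FPKM in the HMC libraries (log2 difference 2.64, SE 0.07, limma adjusted p = 9.37e-09). All DPC libraries lay far above all HMC libraries. SEMA3D (UNQ760/PRO1491) was at 6.53, 7.08 and 6.64 FPKM in DPC and at 0.0428, 0.0211 and 0 FPKM in HMC, where it rested on 2, 1 and 0 recovered reads (log2 difference 2.92, SE 0.08, limma adjusted p = 7.37e-09). SEMA3E (KIAA0331), a ligand of PLXND1, lay under the filter. It was at 0.698, 0.357 and 0.558 FPKM in DPC and was listed at 0 in every HMC library.

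The other class 3 members lay higher in HMC. SEMA3F, a ligand of neuropilin 2, stood at 72.3, 68.9 and 69.1 FPKM in HMC and at 22.1, 23.5 and 22.1 FPKM in DPC (log2 difference -1.59, SE 0.05, limma adjusted p = 1.5e-08). It was thus the most abundant semaphorin of HMC and the second of DPC. SEMA3G, known from endothelium, was at 9.22, 9.48 and 9.63 FPKM in HMC and at 0.326, 0.210 and 0.277 FPKM in DPC (log2 difference -3.04, limma adjusted p = 5.25e-09). SEMA3A, the classic axon repellent, and SEMA3B (SEMA5) were low in both and closer together, with log2 differences of -0.54 and -0.62. SEMA3A was at 1.42 ± 0.212 FPKM in DPC and 2.53 ± 0.539 in HMC (SD, n = 3 each), without overlap. Summed over the 7 genes, class 3 stood at 84.0 ± 1.21 FPKM in DPC and 91.4 ± 2.08 in HMC, and after median-of-ratios rescaling these sums overlapped, at 88.3 ± 0.981 and 86.3 ± 2.80. The members of the class thus differed between the cell types while its sum was near equal.

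The transmembrane class 4 lay mostly in HMC. Summed over 6 genes it came to 104 ± 7.15 FPKM in HMC and 16.3 ± 1.04 in DPC (SD, n = 3 each). Of the 6, 5 were higher in HMC, beside 46.2% of all genes, and of these SEMA4A and SEMA4D passed the filter through HMC alone. SEMA4B stood at 50.6, 48.4 and 44.7 FPKM in HMC and at 0.688, 0.964 and 0.849 FPKM in DPC (log2 difference -4.74, SE 0.08, limma adjusted p = 6.39e-10). SEMA4D (Semacl2), a ligand of PLXNB1 also known from lymphocytes, was at 8.86, 8.33 and 7.71 FPKM in HMC and at 0, 0.0247 and 0.0489 FPKM in DPC (log2 difference -3.18, limma adjusted p = 6.29e-09). SEMA4A was at 9.92 ± 1.55 FPKM in HMC and 0.128 ± 0.0960 in DPC, and SEMA4F at 27.7 ± 1.33 and 4.36 ± 0.154 FPKM (SD, n = 3 each). None of these 4 overlapped between the cell types.

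The other members of class 4 were close to equal. SEMA4G (KIAA1619) had a log2 difference of -0.36 (limma adjusted p = 0.0209) and no longer passed after median-of-ratios or quantile scaling or without any 1 of 3 libraries, DPC replicates 2 and 3 and HMC replicate 1. SEMA4C (UNQ5855/PRO34487), a ligand of PLXNB2, was at 8.26, 7.34 and 9.19 FPKM in DPC and at 7.43, 6.14 and 5.17 FPKM in HMC, with overlap (log2 difference 0.36, limma adjusted p = 0.0292). It no longer passed without any 1 of 4 libraries, DPC replicates 1 and 3 and HMC replicates 2 and 3, where its adjusted p lay between 0.0668 and 0.0991.

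Outside these classes SEMA7A, a GPI-anchored ligand of PLXNC1 and of integrins, was at 27.3, 26.7 and 26.8 FPKM in HMC and at 1.94, 2.00 and 2.25 FPKM in DPC (log2 difference -3.19, SE 0.07, limma adjusted p = 1.74e-09). SEMA5A was the opposite, at 18.3 ± 0.875 FPKM in DPC and 11.4 ± 0.786 in HMC (log2 difference 0.63), and SEMA6C (KIAA1869) was low in both with a log2 difference of 0.46 toward DPC. SEMA6A (KIAA1368) was at 1.56 ± 0.241 FPKM in HMC and 0.232 ± 0.0278 in DPC (log2 difference -1.05). SEMA5B (UNQ5867/PRO34001), SEMA6B (UNQ1907/PRO4353) and SEMA6D (KIAA1479) lay under the filter. They did not overlap between the cell types, SEMA5B and SEMA6D being the higher in DPC, at 0.648 ± 0.0595 and 0.706 ± 0.0635 FPKM, and SEMA6B in HMC, at 0.529 ± 0.0617 FPKM.

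**Figure D2:**
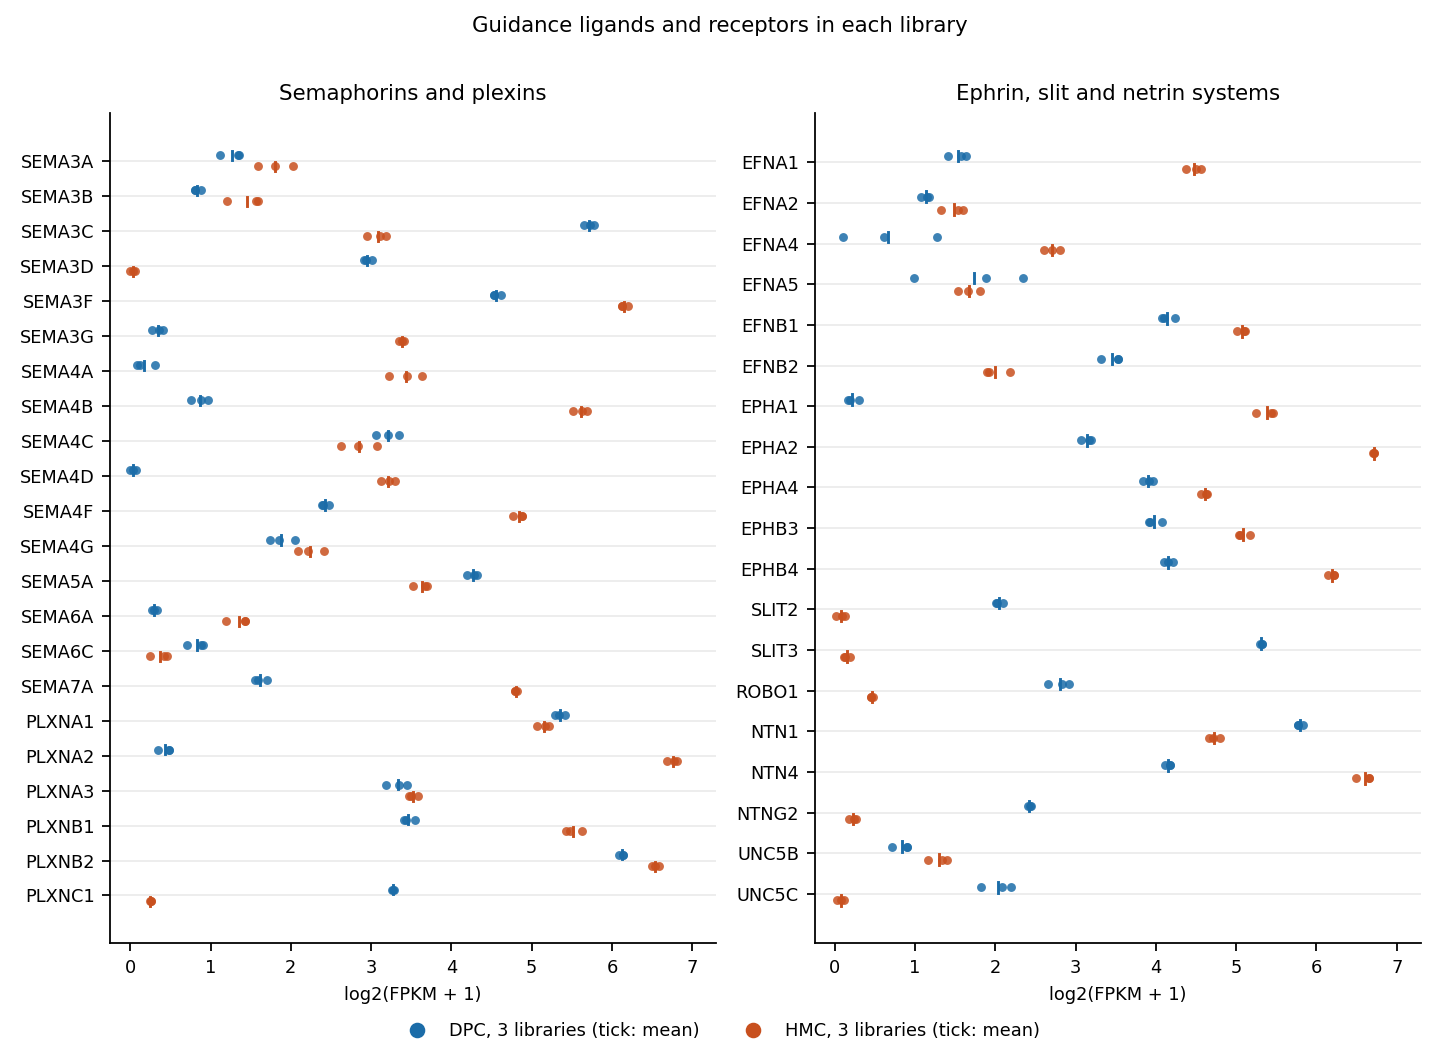
Level of each tested ligand and receptor of the 4 systems as log2(FPKM + 1), 1 point per library and a tick at the mean of 3. SLIT3, SEMA3D and PLXNC1 lay near 0 in HMC only, and PLXNA2, EPHA1 and SEMA4D lay near 0 in DPC only, while SEMA4C and EFNA5 overlapped.

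Plexins are the semaphorin receptors. In DPC PLXNB2 (KIAA0315) and PLXNA1 (NOV) together gave most of the plexin FPKM, with shares of 50.1 ± 0.715% and 29.0 ± 0.964% (SD, n = 3). In HMC PLXNA2 (UNQ209/PRO235), a receptor of class 6 semaphorins and a partner of neuropilins, came first with 37.1 ± 0.178%, ahead of PLXNB2 with 31.8 ± 0.870%. On the log2(FPKM + 1) scale PLXNA2 had the largest difference of any ligand or receptor tested here. It stood at 111, 109 and 102 FPKM in the HMC libraries and at 0.397, 0.274 and 0.400 FPKM in the DPC libraries, where 25 to 37 recovered reads lay behind it (log2 difference -6.32, SE 0.07, limma adjusted p = 8.45e-11). Every HMC library was far above every DPC library. PLXNA2 passed the filter through HMC alone, so its direction carries no weight of its own.

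PLXNB1 (KIAA0407), the receptor of SEMA4D, was at 48.4, 43.7 and 42.0 FPKM in HMC and at 10.7, 9.59 and 9.84 FPKM in DPC (log2 difference -2.05, SE 0.07, limma adjusted p = 3.19e-08). PLXNC1 (VESPR), the receptor of SEMA7A, went the other way, at 8.78, 8.62 and 8.70 FPKM in DPC and at 0.183, 0.195 and 0.193 FPKM in HMC (log2 difference 3.03, SE 0.07, limma adjusted p = 3.64e-09). Neither gene overlapped between the cell types. PLXNC1 passed the filter through DPC alone, so its direction carries no weight of its own. PLXNB2 and PLXNA1 were abundant in both with small differences, -0.42 and 0.20, of which that of PLXNB2 did not pass after quantile normalization (-0.11, limma adjusted p = 0.0523) and that of PLXNA1 did not pass without DPC replicate 1 (limma adjusted p = 0.0546). PLXNA3 (PLXN4) did not pass, at 9.09 ± 0.904 FPKM in DPC and 10.5 ± 0.504 in HMC (log2 difference -0.19, limma adjusted p = 0.0659). It passed without DPC replicate 2 (limma adjusted p = 0.0336) and in limma-voom on recovered reads (adjusted p = 0.0163). PLXNA4 (UNQ2820/PRO34003) lay under the filter, at 0.540 ± 0.0838 FPKM in DPC and 0.193 ± 0.0415 in HMC.

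The ephrin system lay higher in HMC throughout most of its expressed members. Of 11 tested, 9 were higher in HMC, 1 was higher in DPC and 1 did not pass. All 5 tested Eph receptors were higher in HMC, beside 46.2% of all genes higher in HMC and 29.7% higher in DPC. EPHA1 passed the filter through HMC alone, so its direction carries no weight of its own. The remaining 5 Eph receptors, EPHA3 (Rek4), EPHA5 (BSK), EPHA6 (EHK2), EPHB1 (ELK) and EPHB2 (DRT), reached at most 0.162 FPKM in any library.

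EPHA2 (ECK), a receptor tyrosine kinase well known from epithelia, made up 38.1 ± 1.12% of the Eph receptor FPKM in HMC but 14.6 ± 0.861% in DPC, where EPHB4 (HTK), EPHB3 (ETK2) and EPHA4 (Sek) each gave more. It stood at 104, 104 and 105 FPKM in HMC and at 7.99, 8.11 and 7.36 FPKM in DPC (log2 difference -3.58, SE 0.05, limma adjusted p = 2.74e-10). EPHA1 (EPH), the founding member of the family, was at 42.1, 43.1 and 37.0 FPKM in HMC and at 0.139, 0.237 and 0.117 FPKM in DPC (log2 difference -5.16, SE 0.09, limma adjusted p = 4.94e-10). For both, no DPC library came near an HMC library. EPHB4, the receptor of EFNB2 known from veins, was at 73.6, 73.2 and 69.8 FPKM in HMC and at 17.6, 16.7 and 16.1 FPKM in DPC (log2 difference -2.04, limma adjusted p = 5.44e-09). EPHB3 and EPHA4 differed less, with log2 differences of -1.11 and -0.70. EPHA4, which binds ephrins of both classes, stood at 23.4 ± 0.689 FPKM in HMC and 14.0 ± 0.619 in DPC (SD, n = 3 each). In DPC the levels of EPHA4 and EPHB3, at 14.7 ± 1.05 FPKM, did not differ beyond their spread.

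Among the ligands EFNB1 (EFL3), a transmembrane ephrin, was the most abundant in both cell types, with 49.9 ± 2.92% of ephrin FPKM in DPC and 48.8 ± 0.483% in HMC. It was at 33.4, 33.2 and 31.2 FPKM in HMC and at 17.8, 16.2 and 15.9 FPKM in DPC (log2 difference -0.93, limma adjusted p = 2.06e-06). EFNA1, a GPI-anchored ligand of EPHA2, was at 22.5, 21.7 and 19.7 FPKM in HMC and at 2.10, 1.98 and 1.66 FPKM in DPC (log2 difference -2.94, SE 0.09, limma adjusted p = 1.22e-08). The other way lay EFNB2 (EPLG5), at 8.97, 10.5 and 10.5 FPKM in DPC and at 2.78, 2.71 and 3.53 FPKM in HMC (log2 difference 1.46, SE 0.10, limma adjusted p = 3.29e-06). None of the 3 overlapped between the cell types, and EFNB2 was the only member of the ephrin system called higher in DPC.

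The remaining A ephrins were low, and the DPC libraries of EFNA3, EFNA4 and EFNA5 were uneven. EFNA4 (Epl4) was at 5.98, 5.55 and 5.07 FPKM in HMC and at 1.42, 0.535 and 0.0755 FPKM in DPC, on 19, 7 and 1 recovered reads (log2 difference -2.04, SE 0.26, limma adjusted p = 0.000124). EFNA5 (EPLG7) was at 2.70, 4.08 and 0.981 FPKM in DPC and at 1.90, 2.50 and 2.16 FPKM in HMC, with overlap, and did not pass (log2 difference 0.07, SE 0.30, limma adjusted p = 0.835). DPC replicate 3 was the lowest DPC library for both and for EFNA3 (EFL2), which was listed at 0 there, at 0.932 and 0.212 FPKM in the other DPC libraries and between 0.0997 and 0.606 FPKM in HMC. Without that library EFNA5 passed as higher in DPC (log2 difference 0.45, limma adjusted p = 0.0366), and without DPC replicate 2 its sign turned (-0.23). EFNA2 (EPLG6) had a log2 difference of -0.36 and no longer passed after quantile normalization (limma adjusted p = 0.0589). EFNB3 (EPLG8) reached at most 0.0732 FPKM.

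The slit system was on the DPC side in all 3 tested members. SLIT3, a secreted ligand known from diaphragm, heart and bone, made up 92.5 ± 0.297% of slit FPKM in DPC. It stood at 38.4, 38.9 and 38.9 FPKM in the DPC libraries and at 0.142, 0.0844 and 0.0975 FPKM in the HMC libraries, where 10, 6 and 7 recovered reads lay behind it (log2 difference 5.16, SE 0.07, limma adjusted p = 1.54e-10). On the log2(FPKM + 1) scale this was the largest difference toward DPC of any ligand or receptor tested here. SLIT2 (SLIL3) was at 3.03, 3.07 and 3.28 FPKM in DPC and at 0.0657, 0.0909 and 0.0129 FPKM in HMC (log2 difference 1.97, SE 0.08, limma adjusted p = 1.22e-07). Their receptor ROBO1 (DUTT1) was at 5.30, 6.57 and 6.09 FPKM in DPC and at 0.366, 0.390 and 0.372 FPKM in HMC (log2 difference 2.34, SE 0.09, limma adjusted p = 7.26e-08). None of the 3 overlapped. All 3 passed the filter through DPC alone, so their count in 1 direction carries no weight of its own. ROBO2 (KIAA1568) lay under the filter, with 0.475 ± 0.0424 FPKM in DPC and 0.0464 ± 0.0158 in HMC, and SLIT1 (KIAA0813) and ROBO3 reached at most 0.0325 FPKM.

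In the netrin system the ligands were exchanged. NTN1 (NTN1L), the classic netrin, made up 71.1 ± 0.408% of netrin FPKM in DPC, and NTN4, a basement membrane netrin, made up 78.9 ± 1.87% in HMC. NTN1 was at 53.7, 53.6 and 55.8 FPKM in DPC and at 26.9, 25.1 and 24.3 FPKM in HMC (log2 difference 1.07, SE 0.05, limma adjusted p = 3.23e-07). NTN4 was at 89.4, 99.6 and 99.6 FPKM in HMC and at 17.0, 16.4 and 17.1 FPKM in DPC (log2 difference -2.45, SE 0.06, limma adjusted p = 3.16e-09). Both genes were thus well expressed in both cell types, without overlap between them. NTNG2 (Lmnt2), a GPI-anchored relative, was at 4.28, 4.38 and 4.43 FPKM in DPC and at 0.129, 0.204 and 0.177 FPKM in HMC (log2 difference 2.20, limma adjusted p = 4.17e-08). It passed the filter through DPC alone, so its direction carries no weight of its own. NTN3 (NTN2L) lay under the filter, at 0.840 ± 0.316 FPKM in DPC and 0.0958 ± 0.0797 in HMC, and NTNG1 (UNQ571/PRO1133) reached at most 0.0555 FPKM.

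Among the receptors of netrins that are members, UNC5C (UNC5H3) gave 78.8 ± 4.42% of the FPKM in DPC and UNC5B (UNQ1883/PRO4326) 92.6 ± 2.96% in HMC. UNC5C was at 2.52, 3.59 and 3.25 FPKM in DPC and at 0.0806, 0.0199 and 0.0591 FPKM in HMC, on 4, 1 and 3 recovered reads (log2 difference 1.96, SE 0.11, limma adjusted p = 9.03e-07). UNC5B was low in both, at 1.63, 1.53 and 1.23 FPKM in HMC and at 0.862, 0.862 and 0.643 FPKM in DPC (log2 difference -0.46, SE 0.10, limma adjusted p = 0.00358). Neither overlapped. UNC5C passed the filter through DPC alone, so its direction carries no weight of its own. DCC (IGDCC1), the receptor of axon attraction, reached at most 0.0279 FPKM, and UNC5A (Kiaa1976) and UNC5D at most 0.106 FPKM.

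**Figure D3:**
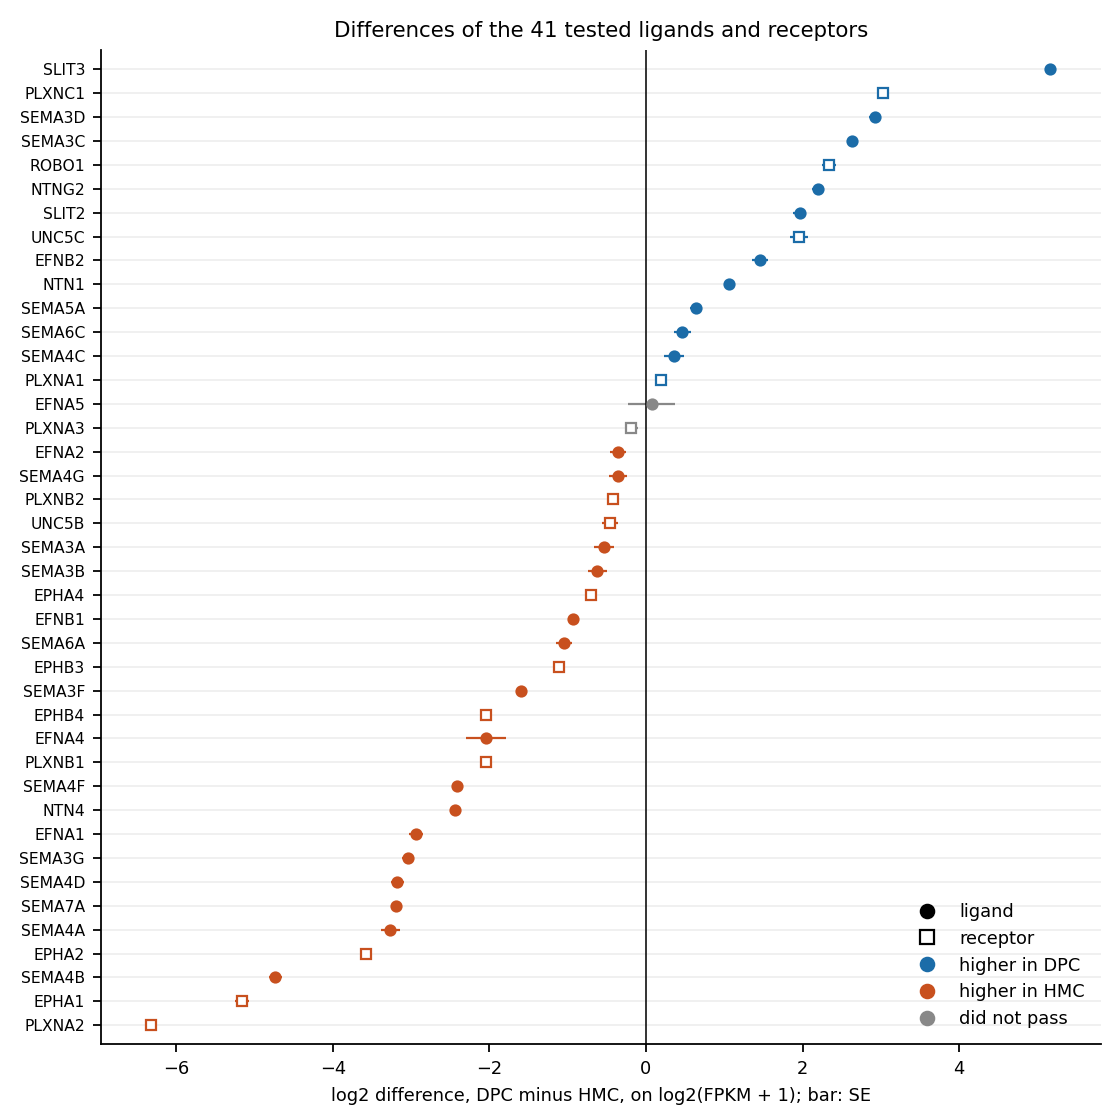
Log2 difference of DPC minus HMC for the 41 tested ligands (filled circles) and receptors (open squares), with the standard error of the fit, sorted by size. The ends are PLXNA2 at -6.32 and SLIT3 at 5.16, and EFNA5 and PLXNA3 (grey) did not pass.

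Set beside their textbook partners, ligands and receptors lay in some cases in the same cell type and in others apart. The pairs were picked with these values known and are a description. SLIT3 and SLIT2 with ROBO1, SEMA3C with PLXND1 and NTN1 with UNC5C were higher in DPC as ligand and receptor. SEMA4D with PLXNB1, EFNA1 with EPHA2 and SEMA6A with PLXNA2 were higher in HMC as ligand and receptor. In 4 other pairs the partners were on opposite sides. NTN1 was higher in DPC while UNC5B, at 0.789 FPKM in DPC and 1.46 in HMC, was higher in HMC, a pair that is not plotted. SEMA7A was at 26.9 FPKM in HMC and 2.06 in DPC, while PLXNC1 was at 0.190 and 8.70 FPKM. EFNB2 was at 10.0 FPKM in DPC and 3.01 in HMC, while EPHB4 was at 16.8 and 72.2 FPKM. SEMA3F was at 70.1 FPKM in HMC and 22.6 in DPC, while its receptor NRP2 (VEGF165R2), which is not among the members, was at 0.524 and 11.4 FPKM (log2 difference 3.02, limma adjusted p = 5.9e-09). Each of these values is a mean of 3 libraries. SLIT3, SLIT2, ROBO1, UNC5C and PLXNC1 passed the filter through DPC alone, and SEMA4D, SEMA6A and PLXNA2 through HMC alone. The sides of these genes in the pairs carry no weight of their own. mRNA of a ligand and a receptor does not show that the proteins meet.

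**Figure D4:**
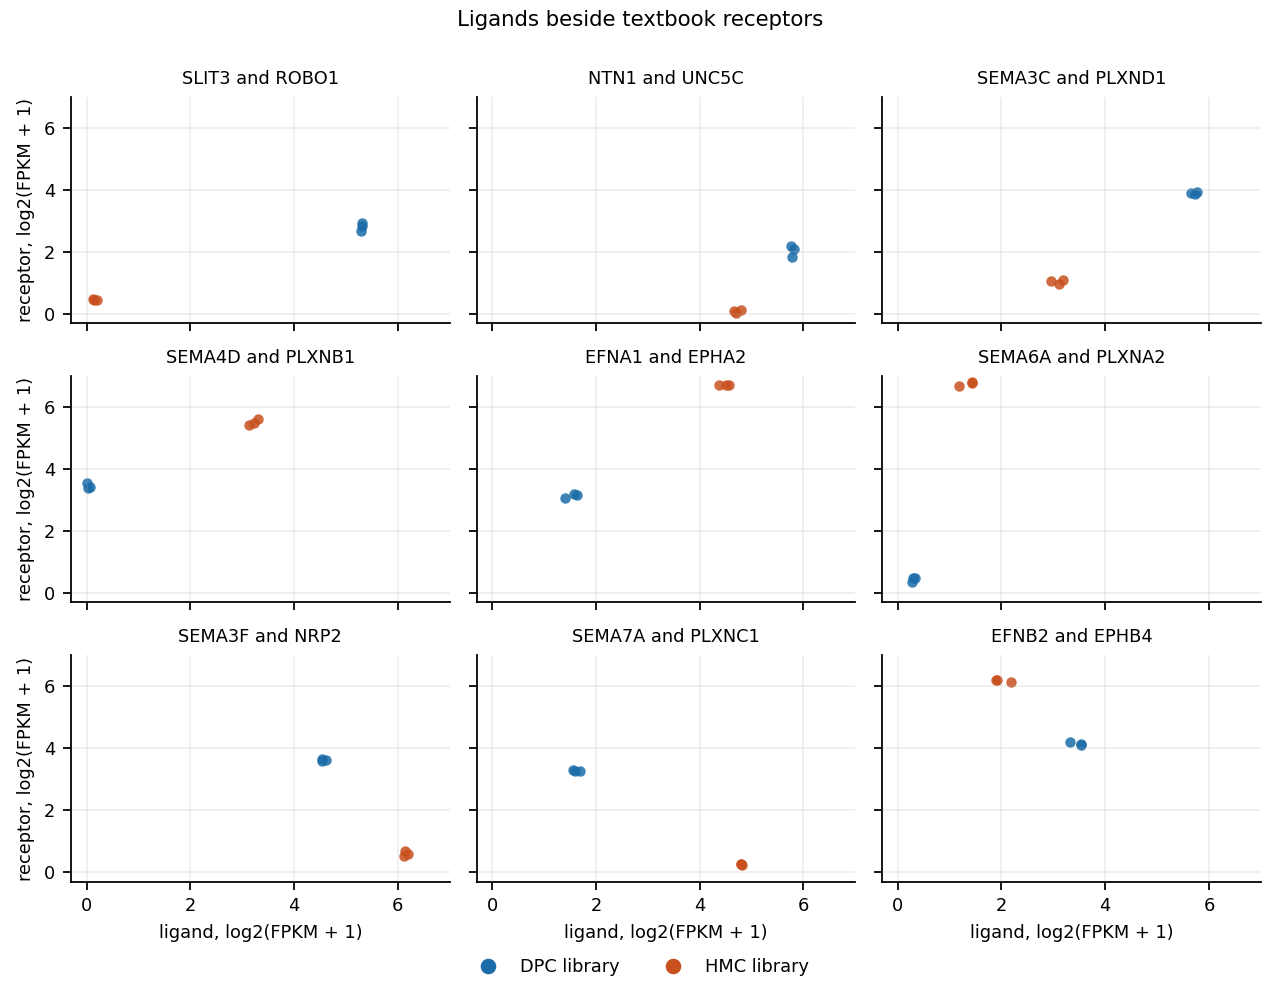
Level of a ligand (x) against a receptor (y), both as log2(FPKM + 1), 1 point per library. In the top row (SLIT3, NTN1, SEMA3C) DPC libraries lay higher on both axes, in the middle row HMC libraries did, and in the bottom row ligand and receptor were higher in different cell types.

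Several guidance receptors and cofactors are not among the members, so a wider list of 94 guidance symbols was matched. Of these 62 are members, 19 were found in other rows and 13 are not analysed here. The 19 symbols fill 21 rows, of which 14 were tested, 9 being higher in DPC, 4 higher in HMC and 1 not passing, beside 29.7% and 46.2% of all genes higher in DPC and in HMC. The list was chosen by hand, and DAG1 fills 2 of the 4 rows higher in HMC. The rows of NEO1 and RGMA (RGM), both higher in DPC, carry the axon guidance annotation. They are therefore also counted among the 52 rows that the rule left out. Both tested semaphorin receptors among them were higher in DPC. PLXND1 (KIAA0620), a receptor of SEMA3E and SEMA3C, stood at 14.4, 14.0 and 13.6 FPKM in DPC and at 1.12, 0.927 and 1.09 FPKM in HMC (log2 difference 2.87, limma adjusted p = 5.7e-09). With NRP2 above it shares that side with SEMA3C and SEMA3D. Neogenin (NEO1, in the table Ngn), a receptor of netrins and RGM proteins, was at 22.2 ± 1.13 FPKM in DPC and 9.25 ± 0.298 in HMC, and its ligand RGMB at 26.3 ± 0.821 and 10.5 ± 1.18 FPKM (SD, n = 3 each). GPC1, a heparan sulfate proteoglycan that binds slits, was at 364 ± 7.20 FPKM in DPC and 17.4 ± 0.891 in HMC (log2 difference 4.31, limma adjusted p = 8.9e-11). In HMC the higher rows were those of NCAM1 (NCAM), of the syndecan SDC1 and 2 rows of dystroglycan (DAG1), which also binds slits. Another syndecan, SDC3 (KIAA0468), was higher in DPC, at 42.2 ± 1.37 FPKM against 14.5 ± 1.79 FPKM in HMC.

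Neighbouring class 3 semaphorins were found on different sides. All 61 genes of the 4 systems matched a symbol in the RefSeq table of the yak assembly Bosgru_T2T1.0, which was used for gene order alone. There SEMA3C, SEMA3E, SEMA3A and SEMA3D follow each other, with 5 coding genes between SEMA3C and SEMA3E and 0 between the others. SEMA3C and SEMA3D were called higher in DPC and SEMA3E was above 0 in DPC alone, while SEMA3A between SEMA3E and SEMA3D was called higher in HMC. ROBO1 and ROBO2 are neighbours with 0 coding genes between, ROBO1 being called higher in DPC and ROBO2, not tested, lying higher in every DPC library. EFNA4, EFNA3 and EFNA1 also follow each other directly, and of these EFNA4 and EFNA1 were higher in HMC while EFNA3 overlapped. SEMA3B and SEMA3F, with 3 coding genes between, were both higher in HMC.

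The 42 members outside the 4 systems include actin regulators, G proteins and kinases, and also membrane proteins and channels. Of the 42, 35 were tested: 12 (34.3%) were higher in DPC, 18 (51.4%) were higher in HMC and 5 did not pass. These shares lay near the 29.7% and 46.2% of all genes. BOC passed the filter through DPC alone, and PRKCZ, L1CAM, NGEF and LRRC4 through HMC alone. FYN, a Src family kinase behind several plexins and netrin receptors, had the largest difference toward DPC, at 21.9, 24.4 and 28.5 FPKM against 0.821, 0.734 and 1.49 FPKM in HMC (log2 difference 3.70, SE 0.15, limma adjusted p = 1.02e-07). PRKCZ (PKC2), an atypical protein kinase C of the cell polarity complex, had the largest toward HMC, at 44.3, 39.3 and 39.3 FPKM against 0.0398, 0.447 and 0.241 FPKM in DPC, on 1, 11 and 6 recovered reads (log2 difference -5.09, SE 0.12, limma adjusted p = 4.02e-09). Neither overlapped. MET, the hepatocyte growth factor receptor, which can associate with B plexins, was at 98.7, 102 and 108 FPKM in HMC and at 8.68, 9.07 and 8.75 FPKM in DPC (log2 difference -3.40, SE 0.05, limma adjusted p = 3.77e-10). L1CAM (CAML1), an adhesion molecule of axons that also acts in semaphorin signalling, was at 18.2, 17.7 and 17.7 FPKM in HMC and at 0.0715, 0.0852 and 0 FPKM in DPC (log2 difference -4.16, SE 0.07, limma adjusted p = 7.03e-10). In both the cell types were far apart in every library.

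Further toward HMC were NGEF, the ephexin that links EPHA receptors to small GTPases, LRRC4 (NAG14), a membrane partner of netrin G proteins, and RND1 (RHO6), a small GTPase that binds plexins, with log2 differences of -3.10, -2.88 and -2.48. NGEF stood at 8.20 ± 0.357 FPKM in HMC and 0.0721 ± 0.0323 in DPC (SD, n = 3 each). RND1 was uneven in HMC, at 21.5, 21.7 and 15.2 FPKM, all above the 2.38, 2.39 and 3.20 FPKM of DPC. Further toward DPC were the actin regulator ENAH (Mena), cofilin 2 (CFL2), the polarity protein PARD6G, the row PDHK1, which carries pyruvate dehydrogenase kinase annotation, and the hedgehog coreceptor BOC (UNQ604/PRO1190). Their log2 differences lay between 1.36 and 1.10, and ENAH was at 119 ± 0.879 FPKM in DPC and 45.9 ± 2.94 in HMC.

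The actin machinery contained the most abundant members. Cofilin 1 (CFL1, in the table CFL), which severs actin filaments, was at 1493 ± 23.4 FPKM in DPC and 1657 ± 8.37 in HMC (log2 difference -0.15, limma adjusted p = 0.000587), but its sign turned after median-of-ratios rescaling and the call was lost with quantile-normalized values (limma adjusted p = 0.457). The muscle-type CFL2 was much lower and on the DPC side, at 84.2 ± 4.13 FPKM against 35.3 ± 2.84 FPKM. Of the kinases that inactivate cofilin, LIMK2 was higher in HMC with 42.1 ± 3.05 FPKM against 10.7 ± 0.464 FPKM (log2 difference -1.88), and LIMK1 (LIMK) less so (log2 difference -0.46). Of the phosphatases that reactivate it, SSH2 (KIAA1725) was higher in HMC (log2 difference -0.78), and SSH1 (KIAA1298) did not pass (0.11). A row without a symbol, ENSBGRG00000014570, annotated as a myosin light chain, stood at 1592 ± 59.0 FPKM in DPC and 789 ± 28.8 in HMC (log2 difference 1.01), whereas the regulatory light chain row MYRL2 was near equal (log2 difference -0.14, limma adjusted p = 0.0241). MYRL2 was no longer called higher in HMC under 7 of 14 other settings, and its sign turned under both rescalings. Some myosin light chain genes are near copies of each other, and reads may be shared between their rows.

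CDC42, a small GTPase of cell protrusion, was at 177 ± 5.38 FPKM in DPC and 215 ± 3.32 in HMC (log2 difference -0.28) and did not pass after quantile normalization (limma adjusted p = 0.108). The integrin-linked kinase ILK was at 138 ± 3.49 FPKM in DPC and 109 ± 8.85 in HMC (log2 difference 0.33). Beside SSH1, the members that did not pass were the G protein subunit GNAI2 (GNAI2B), the phosphatase PTPN11 (PTP2C), the G protein regulator RGS3 and the polarity protein PARD6A (PAR6A), with log2 differences between -0.08 and 0.07. GNAI2 passed as higher in DPC after quantile normalization (0.19, limma adjusted p = 0.00337), and PTPN11 did so under both rescalings. The other G protein alpha subunits, GNAI1 and GNAI3, were called higher in HMC with log2 differences of -1.25 and -0.37.

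**Figure D5:**
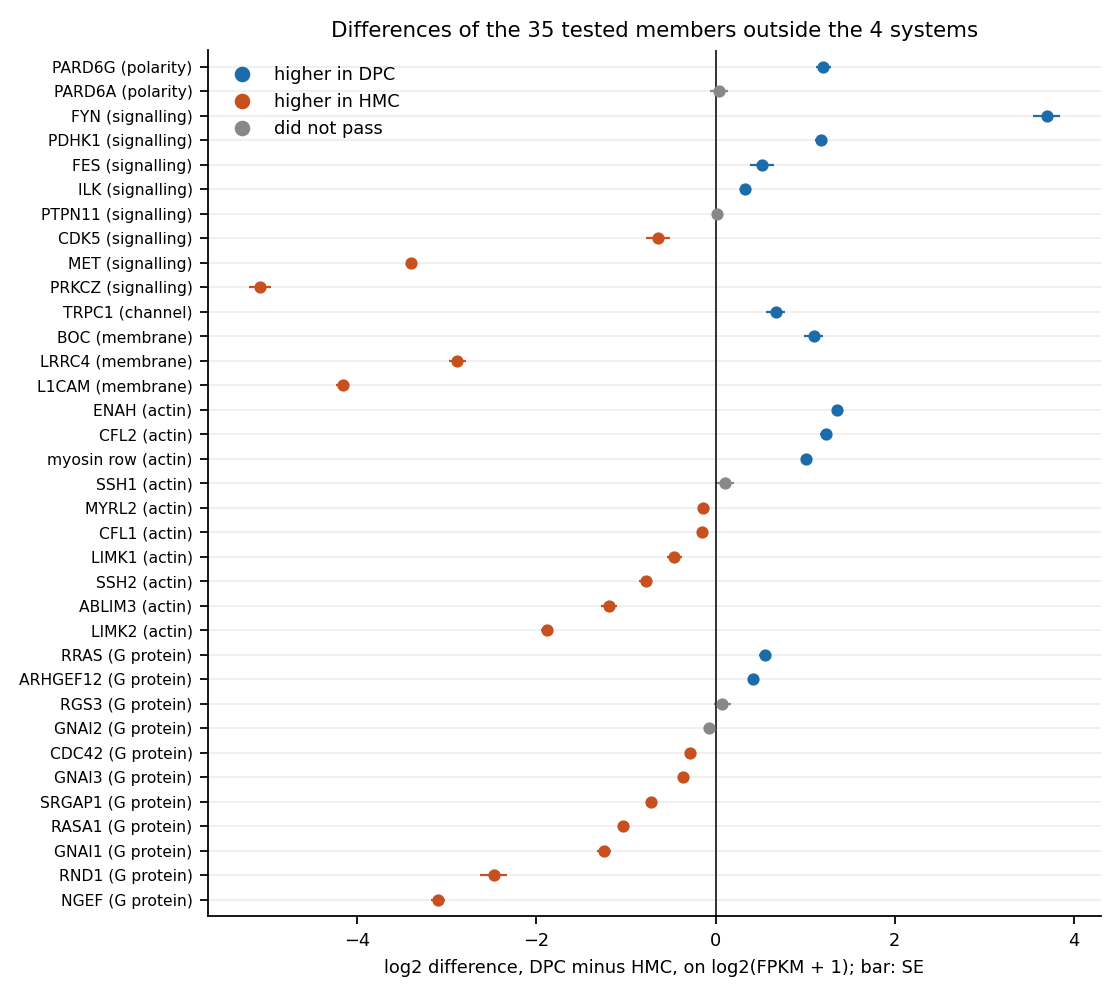
Log2 difference of DPC minus HMC for the 35 tested members outside the 4 systems, with the standard error of the fit, grouped by kind. FYN at 3.70 and PRKCZ at -5.09 are the ends, and the 5 grey points did not pass.

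Of the 27 members under the filter 16 did not overlap between the cell types, beside 32.7% of all genes under it, and 13 stayed under 0.1 FPKM in every library. Without the filter 9 of the 27 were called higher in DPC, 3 higher in HMC and 15 did not pass. Of all genes under the filter 12.7% were called higher in DPC and 14.6% higher in HMC in that fit. Among the 9 were SEMA3E, SEMA5B, SEMA6D, PLXNA4, EPHA5, ROBO2, NTN3 and the cation channel TRPC4. Among the 3 were SEMA6B and the polarity protein PARD3 (PAR3). The call of EPHA5 rested on 2, 2 and 3 recovered reads in DPC and 0, 1 and 1 in HMC. That of PARD3 rested on 1, 1 and 2 in HMC and 0 in every DPC library. The differences of these genes lay between -0.54 and 0.78 on the log2(FPKM + 1) scale, which understates the change of low genes. SRGAP3 (ARHGAP14), TRPC6 and DPYSL5 (CRMP5) reached at most 0.0631 FPKM.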

How the data were processed

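Per the labels' protocols, RNA was taken up in Trizol and libraries were prepared with a stranded TruSeq mRNA kit. Trimmomatic, HISAT2 (2.2.1.0) and DESeq (1.20.0) appear in the submitters' processing notes with no roles; not given in the sources used here are the counter, build and annotation. The authors deposited FPKM per gene. FPKM corrects for length and depth, not for RNA composition. Every gene's values were whole multiples of 1 step within a relative tolerance of 1e-06 (100% of 15646 genes), so whole reads were recovered. A gene's reads could share a common factor, which makes the read numbers lower limits.

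The test was limma 3.58.1 (R 4.3.3), two-sided, on log2(FPKM + 1), the prior variance following a trend. It covered genes averaging 0.5 FPKM or more, with Benjamini-Hochberg adjustment over all of them. Differences on this scale understate the change of low genes. Python 3.11.15 with numpy 2.4.6, pandas 2.3.3 and matplotlib 3.10.9 did the rest. The procedure was tested on simulated data. Alternatives were: pseudocount 0.1; no filter or one at 5 FPKM; median-of-ratios scaling; quantile normalization; a block for the replicate number; a prior without trend; and each library left out. A limma-voom fit on recovered reads was added after seeing the data.

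All members of the 4 systems are named. Of the others, those named are the 6 of largest difference in each direction without overlap, the 6 most abundant and up to 6 that did not pass. Further ones were chosen after their values were seen. Some members are not reported here by name. Current names of older symbols were assigned from the row's own annotation and general knowledge. The members and lists were chosen with earlier results of these data known.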

Additional observations from a re-analysis of the deposited data

How the results depend on the processing

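Over 14 other settings, 822 of 856 values of the 63 members named and tested kept direction and side of the threshold, 19 lost the call, 5 gained it and 10 changed sign. The changes fell on 13 members. After median-of-ratios rescaling the log2 differences of CFL1 (0.00552), GNAI2 (0.0786) and MYRL2 (0.0163) changed sign, and after quantile normalization those of GNAI2 (0.194) and MYRL2 (0.131) did. Leaving out 1 library at a time, EFNA5 lay between -0.23 (without DPC replicate 2) and 0.45, and was also below 0 without DPC replicate 1 (-0.00117). In the same way PTPN11 lay between -0.00785 (without DPC replicate 1) and 0.043, and PARD6A between -0.00369 (without HMC replicate 3) and 0.121, with -0.00109 without HMC replicate 2. Without a filter 11 semaphorin and 2 ephrin members were higher in DPC. With a filter at 5 FPKM fewer genes were tested: 16 members were higher in DPC (13 of those named), among them 4 of the semaphorin, 1 of the slit and 1 of the netrin system, and 8 semaphorin and 1 netrin members were higher in HMC. Leaving out 1 library gave 1 to 2 ephrin members higher in DPC, the second being EFNA5 without DPC replicate 3. Where a group was left with 2 libraries, the spread was pooled over both groups, as it was in the main fit.

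With the replicate number as a block, the members split 26 to DPC and 43 to HMC, as without it; over all genes the counts were 3473 and 5451. Deviations of same-numbered libraries correlated at 0.023, 0.034 and 0.006, and DPC replicate 3 correlated at 0.007 with HMC replicate 2. Values this small do not decide whether equal numbers are paired. The labels do not state a pairing, so the main fit used none. For genes on few reads in the lower group, the size of the fold rests on those few reads.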
